A study of Mus musculus with 13 samples.

Results

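Amyloid beta can be cleared from brain tissue by proteases that cut the peptide. In the cortex of mice of an amyloid-depositing line, with and without apolipoprotein E, 8 genes for such enzymes were examined. They are Mme, Ece1, Ece2, Ace, Ide, Mmp2, Plat and Plau. Each was taken from the deposited expression table by its exact symbol, so the 8 are all matched members among 20971 genes. Tissue came from 7 APPPS1;Apoe-/- mice and 6 APPPS1 mice, all aged 6 months and of strain C57BL/6. Both genotypes carry the APPPS1-21 transgenes, mutant human genes for amyloid precursor protein and presenilin 1 driven by the neuronal Thy1 promoter, and those of the first genotype also lack Apoe. By its labels the design thus compares amyloid-bearing mice with each other, and no group labelled as without the transgenes was analysed here. Values are RPKM, read numbers divided by gene length and by library depth, so that levels of different genes can be set side by side.

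Neprilysin, insulin-degrading enzyme and the endothelin-converting enzymes are zinc metallopeptidases that cut soluble amyloid beta and many signalling peptides, on the cell surface, in the extracellular space or inside vesicles. Mmp2, a gelatinase, can also cut amyloid beta, and angiotensin-converting enzyme can shorten it. The plasminogen activators encoded by Plat and Plau act indirectly, by turning plasminogen into plasmin, which cuts amyloid beta and fibrin.

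The zinc site sets the metallopeptidases apart from the serine proteases Plat and Plau. The coding bases around it are shown for the 5 peptidases that do not belong to the matrix metalloproteinases, because Mme, Ece1 and Ece2 are members of 1 family (M13) whose reads could in principle be mixed. Sequences were taken from GENCODE release M21 transcripts on mm10 and run 5′ to 3′ on the coding strand. The 15 capitals code for the zinc-binding motif, which Ace carries in each of its catalytic domains and which is inverted in Ide.
Mme (chr3:63362006-63362050, plus strand, exon 18): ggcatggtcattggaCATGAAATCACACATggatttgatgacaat
Ece1 (chr4:137957157-137957201, plus strand, exon 17): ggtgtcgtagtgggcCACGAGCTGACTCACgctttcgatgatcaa
Ece2 (chr16:20643875-20643919, plus strand, exon 16): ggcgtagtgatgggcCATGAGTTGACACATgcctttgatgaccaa
Ace (chr11:105972895-105972939, plus strand, exon 8): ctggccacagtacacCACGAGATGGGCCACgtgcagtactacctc
Ace (chr11:105985079-105985123, plus strand, exon 20): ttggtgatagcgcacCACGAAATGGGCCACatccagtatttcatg
Ide (chr19:37329121-37329165, minus strand, exon 2): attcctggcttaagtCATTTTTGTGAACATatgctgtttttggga
Ece1 and Ece2 shared 65.9% of 2246 aligned coding bases, Mme and Ece1 54.7%, and Mme and Ece2 54.7%. The longest stretch without a difference was 17 bases between Ece1 and Ece2 and 12 bases in each of the other pairs, so in the alignment every longer stretch of coding sequence held a difference.

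Apoe checked the genotype labels. It averaged 5.44 ± 0.888 RPKM in the APPPS1;Apoe-/- libraries and 581 ± 84.2 RPKM in the APPPS1 libraries (SD, n = 7 and n = 6). Depth was 18455493 to 34538031 alignments a library in the APPPS1;Apoe-/- group and 28402328 to 77005806 in the APPPS1 group, so weak genes were measured less precisely in the APPPS1;Apoe-/- group. Replicates 2 and 5 of that group stood apart by low App (106 and 116 RPKM) and low Thy1 (52.2 and 56.9 RPKM). The other libraries of the group had 182 to 197 RPKM of App and 172 to 245 RPKM of Thy1. Whether the mice of replicates 2 and 5 carry the transgenes was not tested. Differences without both of these libraries are given for some genes only. Differences below are of log2(RPKM + 0.5), APPPS1;Apoe-/- minus APPPS1, and understate changes of weak genes. In the linear model of limma over the 13343 genes averaging 0.5 RPKM or more, 1098 genes (8.23%) differed at a Benjamini-Hochberg adjusted p under 0.05. Of these, 465 (3.48%) were higher and 633 (4.74%) lower in APPPS1;Apoe-/- cortex. The median difference over all tested genes was -0.01.

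Of the 8 protease genes, 6 passed the filter on low values, and 1 of these (Ece2) was called, as lower in mice without Apoe. Mmp2 and Plau lay under the filter and were tested one by one with exact permutation of the group labels over 1716 splits. Plau was lower in APPPS1;Apoe-/- cortex (exact p = 0.00117), and Mmp2 did not pass (exact p = 0.0932). Among the 7572 genes under the filter, 610 (8.06%) had an exact p under 0.05 without adjustment, and 464 (6.13%) had one with a lower mean in APPPS1;Apoe-/- cortex. None of the other members was called higher or lower in the fit over all genes. In bulk tissue, fewer cells of a type and less RNA per cell cannot be told apart, and this holds for every difference that follows.

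**Figure D1:**
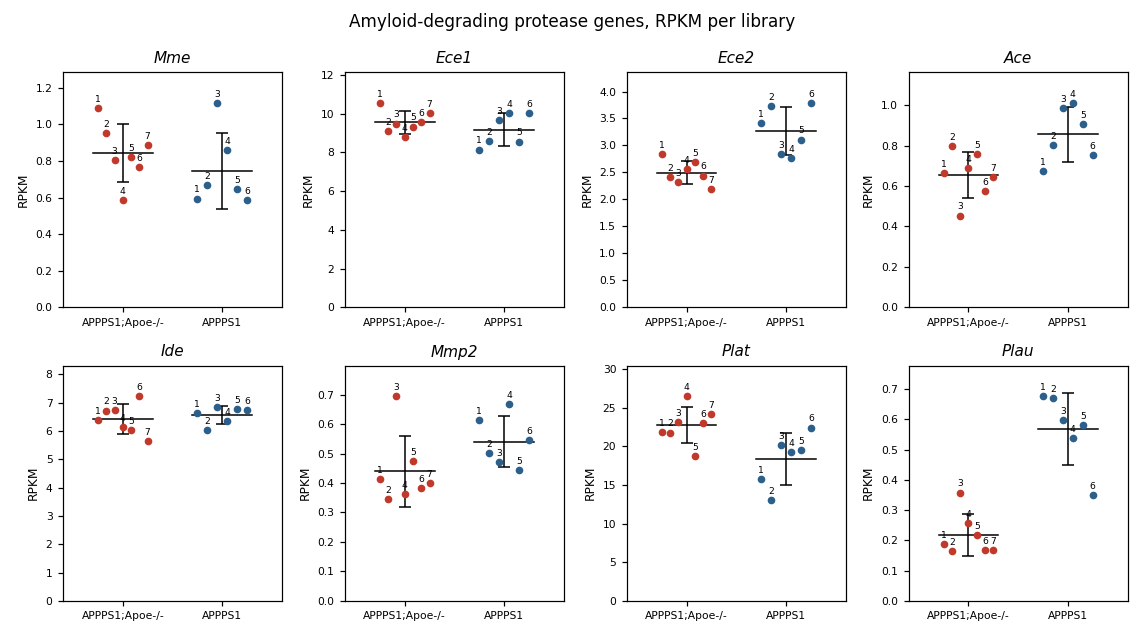
RPKM of the 8 protease genes in each library (points, with replicate numbers), with APPPS1;Apoe-/- on the left and APPPS1 on the right of each panel. Lines and whiskers are the mean and SD (n = 7 and n = 6). Plau and Ece2 are the panels in which 6 of 7 APPPS1;Apoe-/- libraries lie below every APPPS1 library.

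**Figure D2:**
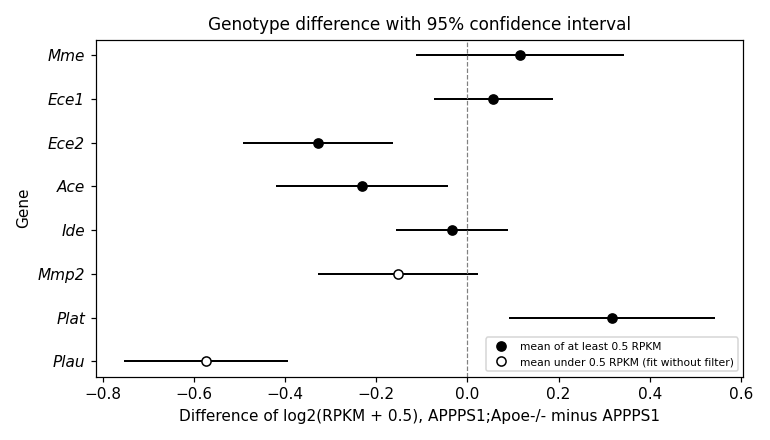
Difference of mean log2(RPKM + 0.5), APPPS1;Apoe-/- minus APPPS1, for each gene (points) with its 95% confidence interval from limma (lines). Open points are Mmp2 and Plau, whose intervals come from the fit without a filter. The intervals of Ece2, Ace, Plat and Plau leave out 0, but after adjustment over all genes Ece2 alone of the 6 filled points was called.

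The cell-surface peptidase of the M13 family, neprilysin, was weakly expressed and varied widely within each genotype. Mme, at positions 63241537 to 63386030 on the plus strand of chromosome 3 (mm10), was between 0.585 and 1.09 RPKM in APPPS1;Apoe-/- libraries, with a median of 0.822 RPKM. In APPPS1 libraries it was between 0.587 and 1.12 RPKM, with a median of 0.658 RPKM. The ranges of the groups almost coincided: the lowest values were 0.585 and 0.587 RPKM, and the highest came from replicate 1 of the APPPS1;Apoe-/- group and replicate 3 of the APPPS1 group. The means were 0.844 ± 0.158 and 0.746 ± 0.208 RPKM in APPPS1;Apoe-/- and APPPS1 cortex (SD). The difference of 0.12 ± 0.11 (SE) had a 95% interval of -0.11 to 0.34 and an adjusted p of 0.544 by limma.

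The level of Mme ran with that of genes of the striatum, the region below the cortex where neprilysin is abundant. A list of 10 striatal marker genes, among them the dopamine receptors Drd1 and Drd2 and the phosphodiesterase Pde10a, summed to between 63.2 and 111 RPKM in APPPS1;Apoe-/- libraries and between 51.8 and 116 RPKM in APPPS1 libraries, and 0 of the 10 genes stood at 0 in any library. Of the 10 markers, 1 was called higher and 0 lower between genotypes, and their median difference was 0.46. APPPS1;Apoe-/- replicate 1 and APPPS1 replicate 3, the libraries highest in Mme, also had the highest mean log2 level of the list within their groups, 3.20 and 3.24. APPPS1 replicate 4 did not follow: its Mme was the next highest of its group, 0.861 RPKM, and its list mean, 2.12, was close to the lowest. After the group mean was subtracted, Mme and the list mean had a Pearson r of 0.80 and a Spearman rho of 0.72 over 13 libraries, which share depth and dissection. With the list mean as a covariate the genotype difference of Mme turned to -0.07 (adjusted p = 0.778, limma). Of 13343 genes, those most like Mme within the groups were Coch (r = 0.90), Gng7 (r = 0.90) and Rbfox1 (r = 0.89). Here and for the members below, the most alike genes are the top 3 of all candidates over 13 libraries. High coefficients can come from that selection alone, and they were not tested. The part of carried-over striatal tissue in the Mme values was not tested.

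**Figure D3:**
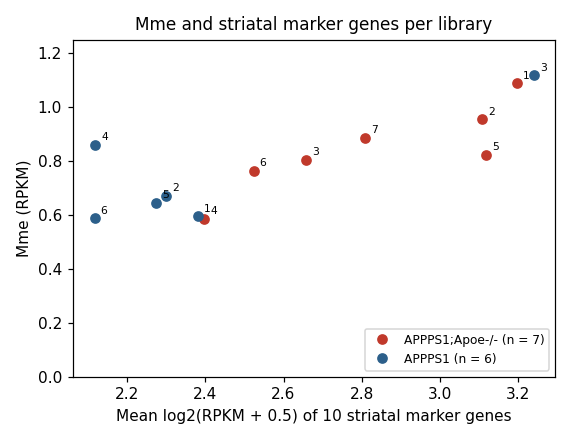
Mme in RPKM (vertical axis) against the mean log2(RPKM + 0.5) of 10 striatal marker genes (horizontal axis), 1 point per library with its replicate number, APPPS1;Apoe-/- and APPPS1 in separate colours. APPPS1;Apoe-/- replicate 1 and APPPS1 replicate 3 are at the upper right, with 1.09 and 1.12 RPKM of Mme. APPPS1 replicate 4, with 0.861 RPKM of Mme, is near the left edge, with a list mean of 2.12.

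The endothelin-converting enzymes, which activate endothelin precursors and cut amyloid beta in acidic compartments, comprise 1 called gene, Ece2, and its relative Ece1. Ece2 had 2.83, 2.42, 2.33, 2.56, 2.70, 2.44 and 2.19 RPKM in APPPS1;Apoe-/- replicates 1 to 7. In APPPS1 replicates 1 to 6 it had 3.42, 3.73, 2.83, 2.76, 3.11 and 3.79 RPKM. Of the libraries without Apoe, all but replicate 1 were below the lowest APPPS1 library, and 4 of 6 APPPS1 libraries were above every library without Apoe. Ece2 fell to 2.50 ± 0.219 RPKM in APPPS1;Apoe-/- cortex, against 3.27 ± 0.441 RPKM in APPPS1 cortex (SD), a ratio of 0.762. The difference was -0.33 ± 0.08 (SE, 95% interval -0.49 to -0.17, adjusted p = 0.0157, limma). It was called in each of 13 fits that left out 1 library, between -0.37 and -0.29, and without both low-App libraries (-0.34, adjusted p = 0.0348). The call ended when log2 depth was a covariate (-0.37, adjusted p = 0.0775) and when the striatal list mean was one (-0.31, adjusted p = 0.0927), with the same direction in each.

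Counts for Ece2 carry an uncertainty of annotation. The gene spans positions 20629828 to 20646485 on the plus strand of chromosome 16, where the protein-coding model Gm49333 overlaps it on the same strand, so reads of this region could be assigned to either. Within the groups Ece2 went with the list of 7 neuronal markers (r = 0.61, rho = 0.59 over 13 libraries that share depth). Of those markers 1 was lower, 0 were higher and 0 were at 0 in any library, with summed levels of 2907 to 3679 RPKM in APPPS1;Apoe-/- libraries and 2867 to 3388 RPKM in APPPS1 libraries. Ece2 also went with the 8 fibroblast markers (r = 0.55, rho = 0.61), of which 6 were tested, 0 were called and 0 were at 0 in any library. They summed to 15.3 to 33.4 RPKM in APPPS1;Apoe-/- libraries and 16.1 to 27.4 RPKM in APPPS1 libraries. The part of neuronal content in the Ece2 difference was not tested, and with the fibroblast list mean as a covariate the difference was -0.33 (adjusted p = 0.00881, limma). The genes most like Ece2 were Lsm5, Hnrnpa0 and Eif4a1 (r = 0.89, 0.87 and 0.85).

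Ece1, the more abundant of the pair, was not called, and its group means lay within 1 SD of each other. It ranged from 8.77 to 10.6 RPKM, with a median of 9.49 RPKM, in APPPS1;Apoe-/- libraries, and from 8.14 to 10.03 RPKM, with a median of 9.14 RPKM, in APPPS1 libraries. The ranges overlapped for most libraries. The difference was 0.06 ± 0.06 (SE), with a 95% interval of -0.07 to 0.19 and an adjusted p of 0.603 by limma. The gene lies on the plus strand of chromosome 4, at positions 137862237 to 137965229, under an antisense model (Gm13012) whose reads cannot be told apart without knowledge of strand use. Its closest genes by pattern were Pcdhga12, Trabd2b and Ddx10 (r = 0.87, 0.85 and 0.80).

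Ace, which converts angiotensin and degrades bradykinin, had the lower mean in mice without Apoe but did not pass the test. In APPPS1;Apoe-/- libraries it stood between 0.454 and 0.796 RPKM, with a median of 0.665 RPKM. In APPPS1 libraries it stood between 0.673 and 1.01 RPKM, with a median of 0.854 RPKM. The groups overlapped: 4 of 7 libraries without Apoe were below all APPPS1 libraries, and the other 3 were not. The means were 0.655 ± 0.115 and 0.855 ± 0.134 RPKM in APPPS1;Apoe-/- and APPPS1 cortex (SD), with a difference of -0.23 ± 0.09 (SE, 95% interval -0.42 to -0.05). The unadjusted interval leaves out 0, but over all genes tested the adjusted p was 0.113 (limma), and none of the alternatives passed, with adjusted p between 0.0766 and 0.244. Within the groups Ace ran with the choroid plexus list (r = 0.52, rho = 0.54) and against the microglial list (r = -0.50, rho = -0.48) over 13 libraries. The choroid plexus list, 8 genes of which 2 passed the filter and 0 were called, summed to 8.71 to 71.2 RPKM in APPPS1;Apoe-/- libraries and 6.50 to 35.4 RPKM in APPPS1 libraries, with 0 of 8 genes at 0 in any library. With the choroid plexus list mean as a covariate the difference of Ace was -0.29 (adjusted p = 0.0766, limma). The part of choroid plexus tissue in Ace was not tested beyond that fit. Ace lies at positions 105967945 to 105989964 on the plus strand of chromosome 11, beneath an antisense model (Gm11651). Apba2, Bckdhb and Slc39a7 were most like it (r = 0.93, 0.91 and 0.90).

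Ide, the cytosolic and secreted enzyme that also degrades insulin, was not called either. It ran from 5.63 to 7.22 RPKM, with a median of 6.39 RPKM, in APPPS1;Apoe-/- libraries, and from 6.03 to 6.84 RPKM, with a median of 6.69 RPKM, in APPPS1 libraries. The APPPS1 range lay inside that of the libraries without Apoe. The difference was -0.03 ± 0.06 (SE, 95% interval -0.15 to 0.09, adjusted p = 0.767, limma). Within the groups Ide ran against the choroid plexus list (r = -0.59, rho = -0.71 over 13 libraries), and with that list mean as a covariate the difference was 0.0073. Ide occupies positions 37268743 to 37337852 on the minus strand of chromosome 19 and holds a processed pseudogene, Rpl10-ps6, within its span. Ascc2, Plekha1 and Taf1 were most like it (r = 0.89, 0.88 and 0.87).

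Mmp2, the secreted gelatinase, was low, and its result turned on 1 library. It had 0.414, 0.346, 0.694, 0.363, 0.475, 0.384 and 0.401 RPKM in APPPS1;Apoe-/- replicates 1 to 7, and 0.613, 0.501, 0.473, 0.667, 0.443 and 0.547 RPKM in APPPS1 replicates 1 to 6. Replicate 3 of the APPPS1;Apoe-/- group was above every APPPS1 library, whereas 5 of the other 6 were below every one. The means were 0.440 ± 0.120 and 0.541 ± 0.0860 RPKM in APPPS1;Apoe-/- and APPPS1 cortex (SD), a difference of -0.15 with a two-sided exact permutation p of 0.0932. Without replicate 3 the difference was -0.21 (exact p = 0.00649). In the fit without a filter over 20915 genes the adjusted p with all libraries was 0.333 (limma), where 871 genes (4.16%) were called. Mmp2 spans positions 92827291 to 92853420 on the plus strand of chromosome 8.

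APPPS1;Apoe-/- replicate 3 was also low in genes of fibroblasts, the cells of meninges and vessel walls in which Mmp2 is usually strong. The 8 fibroblast markers, such as the collagens Col1a1 and Col3a1, summed to 15.3 RPKM in that replicate and to between 15.3 and 33.4 RPKM over its group, against 16.1 to 27.4 RPKM in APPPS1 libraries. None of the 6 tested markers was called, and 0 of 8 were at 0 in any library. Over 13 libraries Mmp2 and the list mean had r = -0.71 but rho = -0.34 within the groups. With the list mean as a covariate the difference was -0.15 (permutation p = 0.0431, approximate because the covariate stayed in place). With the 7 mural cell markers, of which 5 were tested, 0 called and 0 at 0 in any library, Mmp2 had r = -0.61 and rho = -0.59. These summed to 16.96 to 24.3 RPKM in APPPS1;Apoe-/- libraries and 16.2 to 24.2 RPKM in APPPS1 libraries. The part of meningeal and vessel wall content in these values was not tested. The genes most like Mmp2 were 1600029O15Rik, Brip1os and Zfp938 (r = 0.79, 0.76 and 0.75).

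Tissue plasminogen activator was the most abundant member in every library. Plat had 21.9, 21.8, 23.2, 26.5, 18.8, 23.03 and 24.2 RPKM in APPPS1;Apoe-/- replicates 1 to 7. In APPPS1 replicates 1 to 6 it had 15.7, 13.04, 20.2, 19.3, 19.6 and 22.4 RPKM. The groups overlapped, but 4 of 7 libraries without Apoe were above every APPPS1 library, and 2 of 6 APPPS1 libraries were below every library without Apoe. The means were 22.8 ± 2.37 and 18.4 ± 3.40 RPKM in APPPS1;Apoe-/- and APPPS1 cortex (SD), and the difference was 0.32 ± 0.11 (SE, 95% interval 0.09 to 0.54). It missed the threshold over all genes (adjusted p = 0.0766, limma). It passed without APPPS1 replicate 6, the highest of its group (0.38, adjusted p = 0.0469), and with a score of sex-linked genes as a covariate (0.34, adjusted p = 0.0480). Without both low-App libraries it was 0.38 (adjusted p = 0.0660). It was farther from the threshold with log2 depth as a covariate (0.37, adjusted p = 0.181) and without a filter (0.32, adjusted p = 0.144). Over the 14 settings beside the fits without 1 library, the adjusted p of Plat ran from 0.0480 to 0.184 (limma). Plat is on the plus strand of chromosome 8, at positions 22757727 to 22782844.

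The share of Plat among the members' summed RPKM was 48.0% to 57.8% in APPPS1;Apoe-/- libraries and 38.3% to 49.6% in APPPS1 libraries. The summed level of all 8 ran from 39.1 to 45.9 RPKM in the APPPS1;Apoe-/- group and from 34.03 to 45.2 RPKM in the APPPS1 group. Within the groups Plat went with the 7 endothelial markers (r = 0.55, rho = 0.64 over 13 libraries), and endothelium is 1 of its known sources. Of these markers 1 was lower, 0 were higher and 0 were at 0 in any library, with sums of 24.3 to 28.3 RPKM in APPPS1;Apoe-/- libraries and 23.04 to 32.3 RPKM in APPPS1 libraries. Plat also ran against the 5 red blood cell markers (r = -0.58, rho = -0.48). These summed to 10.5 to 22.9 RPKM in APPPS1;Apoe-/- libraries and 4.39 to 369.6 RPKM in APPPS1 libraries, with 139 and 369.6 RPKM in APPPS1 replicates 1 and 2, where Plat was lowest. APPPS1 replicate 4 went the other way, with 198 RPKM of the markers and 19.3 RPKM of Plat. Replicates 5 and 3 had similar Plat, 19.6 and 20.2 RPKM, with 12.2 and 4.39 RPKM of the markers. The median difference of the 5 markers was -1.44, 0 of 5 were called by limma, 2 had an unadjusted p under 0.05, and 0 were at 0 in any library. The part of vessel or blood content in Plat was not tested. Abca9, Tln2 and Sgms2 were most like it (r = 0.86, 0.85 and 0.84).

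Plau, the gene for urokinase, was the weakest member without Apoe and had the largest difference in size among the 8. It had 0.188, 0.165, 0.358, 0.256, 0.218, 0.168 and 0.167 RPKM in APPPS1;Apoe-/- replicates 1 to 7, against 0.676, 0.671, 0.598, 0.537, 0.581 and 0.350 RPKM in APPPS1 replicates 1 to 6. The groups met only where APPPS1;Apoe-/- replicate 3 (0.358 RPKM) passed APPPS1 replicate 6 (0.350 RPKM). Plau fell to 0.217 ± 0.0706 RPKM in APPPS1;Apoe-/- cortex, against 0.569 ± 0.120 RPKM in APPPS1 cortex (SD), a ratio of 0.382. The difference was -0.57 (two-sided exact permutation p = 0.00117). The fit without a filter, in which 517 genes (2.47%) were called lower, gave it an adjusted p of 0.00274 (limma). Leaving out 1 library at a time gave -0.64 to -0.54 (exact p = 0.00126 to 0.00433), and leaving out both low-App libraries gave -0.55 (exact p = 0.00649).

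These levels rest on few reads. From the length of the longest annotated transcript, Plau would correspond to about 9 to 29 alignments in APPPS1;Apoe-/- libraries and 28 to 108 in APPPS1 libraries, an estimate because the length used by the authors is not given in the sources used here. With log2 depth as a covariate the difference was -0.47 (permutation p = 0.00291). That p is approximate, not exact, because the labels were shuffled while depth stayed in place. The size of the difference depends on the pseudocount, from -1.08 at 0.1 RPKM to -0.36 at 1 RPKM. Plau is a short gene on the plus strand of chromosome 14, at positions 20836660 to 20843385. Ppp4r1l-ps, Cox6a2 and Hps3 were most like it within the groups (r = 0.82, 0.82 and 0.81).

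Microglial markers moved in the same direction between the genotypes. Of 10 markers, among them Csf1r, P2ry12 and Trem2, 6 were lower and 0 higher in APPPS1;Apoe-/- cortex, with a median difference of -0.54, and 0 were at 0 in any library. They summed to 198 to 400.5 RPKM in APPPS1;Apoe-/- libraries and 561 to 652 RPKM in APPPS1 libraries. The low-App replicates 2 and 5 had the lowest sums, 198 and 225 RPKM, while their Plau levels were 0.165 and 0.218 RPKM, beside 0.167 to 0.358 RPKM in the other 5 libraries of the group. The marker counts and median above include replicates 2 and 5. Within the groups Plau and the microglial list mean had r = 0.18 and rho = 0.16 over 13 libraries. The part of microglial content in the Plau difference was not tested.

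Around the plasminogen activators, the receptor and part of the inhibitors differed by genotype. Of 13 genes of the plasminogen system, 8 passed the filter, of which 2 were lower, 0 were higher and 6 were not called, with a median of -0.03. Plaur, the receptor that holds urokinase on the cell surface, fell to 2.21 ± 0.399 RPKM in APPPS1;Apoe-/- cortex, against 3.56 ± 0.804 RPKM in APPPS1 cortex (-0.57, adjusted p = 0.00703). Its groups met at APPPS1;Apoe-/- replicate 1, with 3.02 RPKM, and APPPS1 replicate 3, with 2.67 RPKM, and the call ended with the striatal covariate (-0.50, adjusted p = 0.0661). A2m, a broad protease inhibitor that binds plasmin and amyloid beta, fell to 0.763 ± 0.115 RPKM in APPPS1;Apoe-/- cortex, against 1.61 ± 0.288 RPKM in APPPS1 cortex (-0.73, adjusted p = 3.20e-04). Its groups did not overlap, which held for 496 of the 13343 tested genes (3.72%).

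Plasminogen itself was almost absent from the cortical RNA. Plg was listed at 0 in every library except APPPS1 replicate 4, with 0.0338 RPKM. The main inhibitors of the activators in neural tissue were abundant and not called: Serpine2 had 137 ± 6.15 RPKM in APPPS1;Apoe-/- cortex and 145 ± 9.81 RPKM in APPPS1 cortex (-0.07, adjusted p = 0.393). Serpini1, or neuroserpin, had 85.0 ± 9.07 RPKM in APPPS1;Apoe-/- cortex and 75.7 ± 6.38 RPKM in APPPS1 cortex (0.16, adjusted p = 0.179), and passed without APPPS1;Apoe-/- replicate 4 (0.21, adjusted p = 0.0420). The receptor was thus lower, and the abundant serpins were not called with all libraries.

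**Figure D4:**
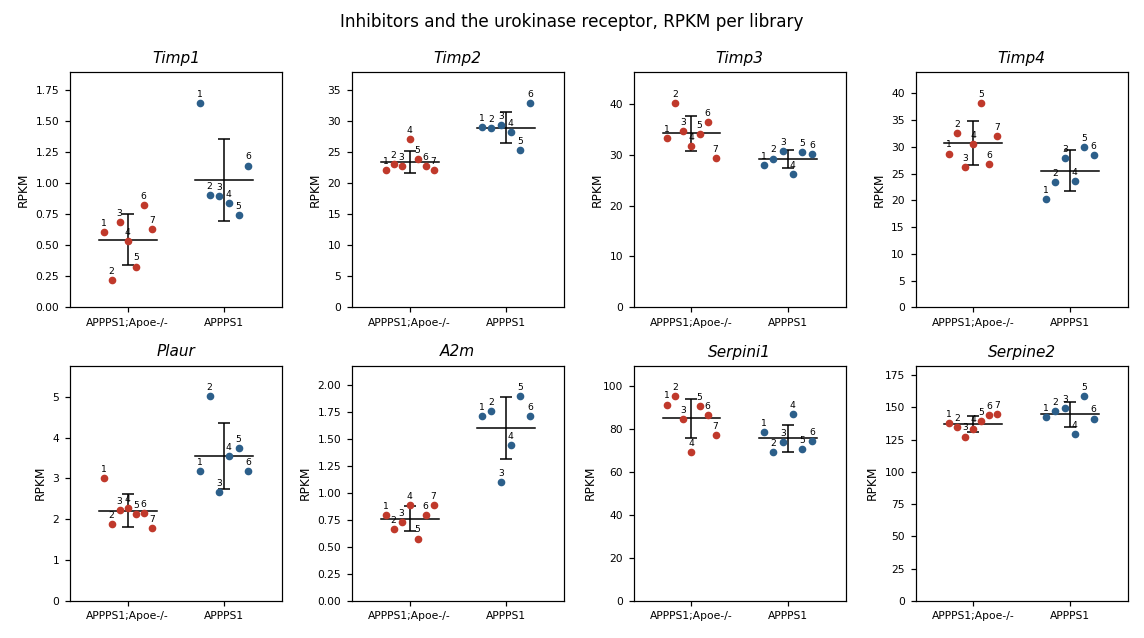
RPKM of protease inhibitors and of the urokinase receptor Plaur in each library (points, with replicate numbers), with APPPS1;Apoe-/- on the left and APPPS1 on the right of each panel. Lines and whiskers are the mean and SD (n = 7 and n = 6). A2m does not overlap between groups, and for Timp1, Timp2 and Plaur 6 of 7 APPPS1;Apoe-/- libraries lie below every APPPS1 library.

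The tissue inhibitors of metalloproteinases, which block Mmp2 and its relatives, differed in opposite directions. Timp2, which also takes part in the activation of Mmp2, fell to 23.4 ± 1.76 RPKM in APPPS1;Apoe-/- cortex, against 28.98 ± 2.45 RPKM in APPPS1 cortex (-0.30, adjusted p = 0.00703). Timp1, an inducible inhibitor, fell to 0.545 ± 0.208 RPKM in APPPS1;Apoe-/- cortex, against 1.03 ± 0.331 RPKM in APPPS1 cortex (-0.55, adjusted p = 0.0319). Timp3, which binds the extracellular matrix, rose to 34.3 ± 3.43 RPKM in APPPS1;Apoe-/- cortex, against 29.2 ± 1.76 RPKM in APPPS1 cortex (0.23, adjusted p = 0.0417). Of these calls Timp2 held in each of 13 fits without 1 library but not with log2 depth as a covariate (-0.27, adjusted p = 0.102). Timp1 and Timp3 lost the call in 5 and 10 of the 13 fits, and without both low-App libraries (-0.38 and 0.18, adjusted p = 0.101 and 0.111). Timp4 was not called, with 30.7 ± 4.10 RPKM in APPPS1;Apoe-/- cortex and 25.6 ± 3.76 RPKM in APPPS1 cortex (0.26, adjusted p = 0.106).

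In the list of 17 matrix metalloproteinases and inhibitors these were the calls: 1 higher, 2 lower and 8 not called of 11 tested, with a median of -0.07. Mmp14, the membrane protease that activates Mmp2, had 0.556 ± 0.119 RPKM in APPPS1;Apoe-/- cortex and 0.688 ± 0.173 RPKM in APPPS1 cortex (adjusted p = 0.365). Mmp9, the other gelatinase, had 0.239 ± 0.102 RPKM in APPPS1;Apoe-/- cortex and 0.224 ± 0.0783 RPKM in APPPS1 cortex (exact permutation p = 0.808). Among the 6 genes under the filter, Mmp19 and Mmp23 had an exact p under 0.05, each with the lower mean in mice without Apoe (0.0262 and 0.00350). The 3 calls of the fit with the filter were thus all of inhibitors. This depended on the filter. In the fit without a filter over 20915 genes, the metalloproteinase Mmp23 was called lower (-0.33, adjusted p = 0.0248, limma), and Mmp19 was not called (-0.20, adjusted p = 0.149). There Timp2 stayed called, whereas Timp1 and Timp3 did not (adjusted p = 0.072 and 0.069).

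Other peptidases reported to cut amyloid beta or its precursor included 3 called genes of 7 tested, 1 higher and 2 lower, with a median of -0.16. Ctsd, the lysosomal aspartyl protease, fell to 483 ± 101 RPKM in APPPS1;Apoe-/- cortex, against 858 ± 54.6 RPKM in APPPS1 cortex (-0.86, adjusted p = 5.58e-04), without overlap of the groups. The low-App replicates 2 and 5 had the lowest Ctsd, 331 and 354 RPKM, beside 490 to 595 RPKM in the rest of their group. Ctsd was called in each of 14 other settings, between -0.87 and -0.67, among them the fit without both low-App libraries. Ctsb, a lysosomal cysteine protease, fell to 259 ± 14.7 RPKM in APPPS1;Apoe-/- cortex, against 293 ± 15.5 RPKM in APPPS1 cortex (-0.18, adjusted p = 0.0412), a call that ended in 10 of 13 fits without 1 library. Htra1, a secreted serine protease, rose to 19.1 ± 4.09 RPKM in APPPS1;Apoe-/- cortex, against 13.6 ± 2.68 RPKM in APPPS1 cortex (0.46, adjusted p = 0.0402), a call that ended in 7 of those fits. Without both low-App libraries neither Ctsb (-0.16, adjusted p = 0.113) nor Htra1 (0.43, adjusted p = 0.109) was called. The lysosomal proteases were far more abundant than any of the 8 members. The microglial markers were lower in the same mice as Plaur, A2m, Timp1, Timp2, Ctsd and Ctsb, and their part in these differences was not tested.

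The relatives of neprilysin and of Ide held no call over all genes with all 13 libraries and genotype alone in the fit. Of 6 such genes 3 passed the filter, with a median of -0.08. Ecel1, a neuronal M13 relative, had 1.13 ± 0.336 RPKM in APPPS1;Apoe-/- cortex and 1.61 ± 0.432 RPKM in APPPS1 cortex (-0.37, adjusted p = 0.130). It passed with the fibroblast covariate (-0.38, adjusted p = 0.0402) and without APPPS1 replicate 4 (-0.47, adjusted p = 0.0476). Nrd1, an M16 relative of Ide, had 8.91 ± 0.448 RPKM in APPPS1;Apoe-/- cortex and 9.47 ± 0.632 RPKM in APPPS1 cortex (-0.08, adjusted p = 0.347). Pitrm1, the mitochondrial M16 peptidase, had 9.22 ± 0.497 RPKM in APPPS1;Apoe-/- cortex and 9.05 ± 0.257 RPKM in APPPS1 cortex (0.02, adjusted p = 0.797). Mmel1, the closest relative of Mme, was under the filter and had the lower mean in APPPS1;Apoe-/- cortex (exact permutation p = 0.0315).

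The peptide systems that these enzymes act on gave few calls. Of 17 endothelin, angiotensin and kinin genes 8 were tested and 0 were called by limma, with a median of -0.07, although 2 had an unadjusted p under 0.05, as did 25% of all genes tested. Ednrb, an endothelin receptor of astrocytes, had 17.7 ± 2.38 RPKM in APPPS1;Apoe-/- cortex and 19.6 ± 1.66 RPKM in APPPS1 cortex (-0.15, adjusted p = 0.279). Of 11 genes for peptides that neprilysin or Ide can degrade, 10 were tested, of which 1 was lower, 0 were higher and 9 were not called, with a median of 0.12. Cck, the precursor of cholecystokinin, fell to 92.0 ± 10.8 RPKM in APPPS1;Apoe-/- cortex, against 117 ± 14.7 RPKM in APPPS1 cortex (-0.35, adjusted p = 0.0239). Sst, the somatostatin precursor, had 398 ± 46.0 RPKM in APPPS1;Apoe-/- cortex and 339.96 ± 25.5 RPKM in APPPS1 cortex (0.22, adjusted p = 0.0720), and passed without APPPS1;Apoe-/- replicate 6 (0.26, adjusted p = 0.0340).

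The order of the members by level was shared at the top and differed at the bottom. In the APPPS1;Apoe-/- group it ran Plat, Ece1, Ide, Ece2, Mme, Ace, Mmp2 and Plau, and in the APPPS1 group Plat, Ece1, Ide, Ece2, Ace, Mme, Plau and Mmp2. Down to Ece2, and from Ece2 to the next gene, neighbours did not overlap in either group and kept their order in 7 of 7 and 6 of 6 libraries. Below Ece2 the ranges of neighbours overlapped. In APPPS1;Apoe-/- libraries Mme was above Ace in 6 of 7, Ace above Mmp2 in 6 of 7 and Mmp2 above Plau in 7 of 7. In APPPS1 libraries Ace was above Mme in 5 of 6, Mme above Plau in 4 of 6 and Plau above Mmp2 in 4 of 6. Mmp2 and Plau in mice without Apoe also overlapped in range, although they kept their order in each library. Whether neighbours differ in level was not tested.

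Among the members themselves most within-group correlations were weak. Over the 28 pairs the within-group correlation over 13 libraries had a median of -0.07 and ran from -0.55 for Ece1 and Plau to 0.59 for Mme and Ece1. Of the 11 marker lists compared with each member, striatum with Mme (r = 0.80) gave the highest coefficient and fibroblasts with Mmp2 (r = -0.71) the lowest. Of the lists not yet described, astrocytes had 1 higher and 1 lower of 7 markers, with 6 at an unadjusted p under 0.05. Oligodendrocytes had 3 higher of 7, with 4 at an unadjusted p under 0.05, and cortical layers had 0 of 6 called by limma, with 2 at an unadjusted p under 0.05.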

How the data were processed

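RNA from the cortex of 7 APPPS1;Apoe-/- and 6 APPPS1 mice was sequenced, and the labels place each library in its genotype. Trizol extraction and Clontech SMARTer libraries are named per the labels' protocols. The authors deposited 1 table of RPKM per gene, with each library's number of alignments. Partek and mm10 were used, per the submitters' processing notes. Not given in the sources used here are the aligner, counting rule, strand use, gene lengths and annotation. RPKM carries sampling error that is not stated, and the approximate alignments given for Plau were computed from RPKM, depth and GENCODE M21 transcript length. Table genotypes matched the labels in 13 of 13 libraries, and 0 pairs of libraries were identical.

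From the deposited values, log2(RPKM + 0.5) was computed, and 13343 genes averaging 0.5 RPKM or more were fitted with limma 3.58.1 in R 4.3.3 (eBayes with a trend), genotype being the only term. Adjusted p-values are Benjamini-Hochberg over all genes tested, two-sided, called under 0.05. Genes under the filter had two-sided exact permutation tests over all 1716 splits, unadjusted. The code was tested on simulated data for this comparison: among 13343 genes, 88% of 50 genes shifted by 0.5 (log2) were called and 100% of those shifted by 1, with 12 false calls. The shifted genes were drawn from those averaging 2 RPKM or more, so these rates do not cover weaker genes such as Mme and Ace. Likeness is the Pearson r of log2 values after subtraction of the group mean, a description without a test. Python 3.11.15, pandas 2.3.3, numpy 2.4.6, scipy 1.17.1, Biopython 1.88 and matplotlib 3.10.9 were used for the rest. How Mmp2 and Plau were tested in the settings without a filter (limma) and with a covariate (permutation with the covariate kept in place) was chosen after the data were seen. Permutation p-values with a covariate are approximate, not exact. Alternatives were other pseudocounts, filters, scaling and variance models, covariates, and fits without 1 or 2 libraries.

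The genes named are the 8 members, up to 3 called genes per direction of each of 6 pathway lists, a set named in any case, the 3 genes most like each member, and Apoe, App and Thy1. Mmp19, Mmp23 and Mmel1 were added after their values were seen. Members and lists were chosen with earlier results of these data known. Some named genes are not reported here.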

Additional observations from a re-analysis of the deposited data

Results flagged for a closer look

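Among 65 groups of values of the members and their named partners, 6 had a library farther from the rest than a test for single outlying values allows, where chance gives about 1 in 20. Mmp2 stood at 0.694 RPKM in APPPS1;Apoe-/- replicate 3, while the other 6 of its group had 0.346 to 0.475 RPKM. Timp2 stood at 27.2 RPKM in APPPS1;Apoe-/- replicate 4, while the other 6 had 22.2 to 23.9 RPKM. Plaur stood at 3.02 RPKM in APPPS1;Apoe-/- replicate 1, while the other 6 had 1.78 to 2.28 RPKM. Plg stood at 0.0338 RPKM in APPPS1 replicate 4 and was listed at 0 in the other APPPS1 libraries. For Pitrm1 it was APPPS1 replicate 3, the library with the most alignments, with 9.54 RPKM, the other 5 having 8.80 to 9.08 RPKM. For Ednrb it was APPPS1 replicate 4, with 16.4 RPKM, the other 5 having 19.4 to 20.8 RPKM.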

How the results depend on the processing

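Over all genes, 465 were higher and 633 lower. With the alignments covariate these counts were 70 and 132, with the striatal covariate 127 and 205, and without both low-App libraries plus the alignments covariate 84 and 199. They were 258 and 451 with the choroid plexus covariate and 236 and 442 without both low-App libraries. Leaving out 1 library gave 271 to 742 higher genes (271 without APPPS1 replicate 6, 290 without APPPS1 replicate 2 and 742 without APPPS1;Apoe-/- replicate 4) and 428 to 854 lower genes.

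Of the members tested by limma, 1 was lower, and 0 were under the alignments covariate, the striatal covariate, and the alignments covariate without both low-App libraries. There Ece2 was at -0.37 (adjusted p = 0.0775), -0.31 (adjusted p = 0.0927) and -0.37 (adjusted p = 0.109). With the sex score covariate 1 member was higher, Plat at 0.34, and without APPPS1 replicate 6 likewise. Leaving out 1 library gave 0 to 1 higher members, and Plat between 0.22 and 0.38. Mmp2 passed with the fibroblast covariate (-0.15) and without APPPS1;Apoe-/- replicate 3, in a range of -0.21 to -0.12 over the fits without 1 library. Plau kept its direction and passed under all 11 settings and 13 fits without 1 library run for it. For Plau and Mmp2, the permutation p-values with a covariate are approximate, because labels were shuffled while the covariate stayed in place. Mme reversed with the striatal covariate (-0.068), and Ide with the alignments covariate (0.0040) and the choroid plexus covariate (0.0073). Among other genes, Pitrm1 reversed with the striatal covariate (-0.00036), App without both low-App libraries plus the alignments covariate (0.013), and Mmp9 with the striatal covariate (-0.012) and in a range of -0.035 to 0.067 over the fits without 1 library. The cause was not tested.

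Calls that ended in fits without 1 library were those of Timp1 (without APPPS1;Apoe-/- replicate 2 or 5, or APPPS1 replicate 1, 2 or 6, adjusted p up to 0.0713) and Cck (without APPPS1 replicate 1, 2 or 6, up to 0.0612). So did those of Htra1 (without APPPS1;Apoe-/- replicate 2, 5 or 7, or APPPS1 replicate 1 to 4, up to 0.0939), and, in 10 fits each, Timp3 (all but those without APPPS1;Apoe-/- replicate 4 or 7 or APPPS1 replicate 3, up to 0.0900) and Ctsb (all but those without APPPS1;Apoe-/- replicate 3 or 7 or APPPS1 replicate 6, up to 0.0892). Timp2, Plaur, A2m, Ctsd and Ece2 ended in 0 of 13 such fits. Under the settings other than these, calls ended for Ctsb in 8 of 14, Timp3 in 7 of 14, Timp1 in 6 of 13, Htra1 in 5 of 14, Timp2, Cck and Ece2 in 3 of 14 each, Plaur in 2 of 14, and A2m and Ctsd in 0 of 14. Calls were gained by Ecel1 with the fibroblast covariate and without APPPS1 replicate 4, by Serpini1 without APPPS1;Apoe-/- replicate 4 and by Sst without APPPS1;Apoe-/- replicate 6. Plg, above 0 in 1 library, passed its permutation test with the alignments covariate, with and without both low-App libraries, and with the choroid plexus covariate (permutation p = 0.00175, 0.0303 and 0.00991). Without a covariate its exact permutation p was 0.462, so the permutation p-values with a covariate are not to be read as exact. With a mean of at least 1 RPKM as the filter, Mme, Ace, Timp1 and Mmp14 drop out and have no value. Filters, array weights and the fit without a trend do not apply to the exact tests. Plau and Mmp2 rest on few reads. No paired analysis was possible because the labels do not match libraries between the groups, and equal replicate numbers mark no pair.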
